A study of Mus musculus with 4 samples.

Results

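The genes described here are 9 mouse genes of retinoid uptake, synthesis, binding, signalling and breakdown: Stra6, Aldh1a1, Aldh1a2, Aldh1a3, Crabp1, Crabp2, Rarb, Rarg and Cyp26b1. They were taken by symbol from the 32932 genes listed in single-cell RNA-seq tables of the developing mammary gland, and each kept 1 Ensembl identifier across the tables. The cells came from female wild-type mice labelled C57B6 at 3 embryonic stages named by their day (E13.5, E14.5, E15.5) and at birth (P0), with 1 library per stage. For each stage, mammary rudiments of several embryos or pups were pooled, dissociated and sorted into epithelial (EpCAM+) and mesenchymal (EpCAM-) cells, after removal of cells carrying CD45, CD31 or Ter119, and the labels do not tell the sorted fractions apart within a library. The P0 glands were digested with other enzyme amounts and treated to lyse red blood cells, so stage, library and preparation cannot be told apart.

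Retinoic acid is made from circulating retinol. Stra6 takes retinol into the cell from its plasma carrier, alcohol and retinol dehydrogenases oxidise it to retinal, and the retinaldehyde dehydrogenases Aldh1a1, Aldh1a2 and Aldh1a3 oxidise retinal to retinoic acid. Inside the cell, Crabp1 and Crabp2 bind retinoic acid, the nuclear receptors of the Rar family act on its target genes, and the Cyp26 enzymes break it down. The pathway works between neighbouring cells, since the cell that makes retinoic acid need not be the one that answers it, and it is best known for its roles in patterning and in epithelial organs of the embryo.

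Rarb is a textbook target of retinoic acid as well as its receptor, through a direct repeat at an internal start site, and that stretch is printed because it joins the receptors to the genes known to respond. It is taken from RefSeq on GRCm38.p6, minus strand, chr14:16575483-16575569, and ends a few bases before the start site; the capitals mark the repeat, 53 to 37 bases before the start.
Rarb promoter: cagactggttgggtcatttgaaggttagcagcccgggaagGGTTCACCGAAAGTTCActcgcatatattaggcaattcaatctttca
The core of the repeat, a pair of GTTCA with any 6 bases between them on either strand, was found in 25 of 32851 RefSeq promoter windows (0.0761%). RefSeq promoters were at hand for 7 of the 9 genes, 12 promoters in all, and 1 of the 12 held this core. Among the wider retinoid lists described below, the promoter of Cyp26a1 held it too. The match is a description of these letters and says nothing of binding in these cells.

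Kept cells had at least 5000 UMIs (unique molecular identifiers, each a counted transcript), no more than 6% of them from mitochondrial genes. They numbered 235, 76, 816 and 503 from the earliest stage to the latest. A cell was called epithelial or mesenchymal by the larger of its summed UMIs of Epcam, Krt8, Krt18, Krt5 and Krt14 and of Col1a1, Col1a2 and Col3a1, which left 3 of 1630 cells without a tissue. Epithelial cells numbered 98, 45, 532 and 230 in the order of the stages, and mesenchymal cells 135, 31, 283 and 273. Skin cells, which the study removed, were not removed here. In E13.5 epithelium, clustered as described below, cluster 2 (21 cells) raised 5 of 7 embryonic mammary markers and cluster 0 (31 cells) raised 0. Cluster 0 raised 3 of 7 periderm markers. Clusters 1 and 3 (27 and 19 cells) raised 2 and 0 of the mammary markers. The part of skin cells in the epithelial levels and folds was not tested. The median depth of a cell was between 16438 and 26725 UMIs in the 6 embryonic groups, 9973 in P0 epithelium and 8743 in P0 mesenchyme. The collagens took 4842 to 74311 CPM in mesenchyme and 34.3 to 309 CPM in epithelium, and the epithelial markers 3269 to 13878 CPM in epithelium and 41.8 to 358 CPM in mesenchyme. No barcode of a kept cell was shared between libraries. A level in CPM is a gene's UMIs summed over a group's cells and scaled to the UMIs of all genes there, with its exact 95% Poisson interval, and a fold is a ratio of 2 such levels with its exact conditional 95% interval. With 1 library per stage there was no replicate check and no test, and the intervals cover counting error only.

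**Figure D1:**
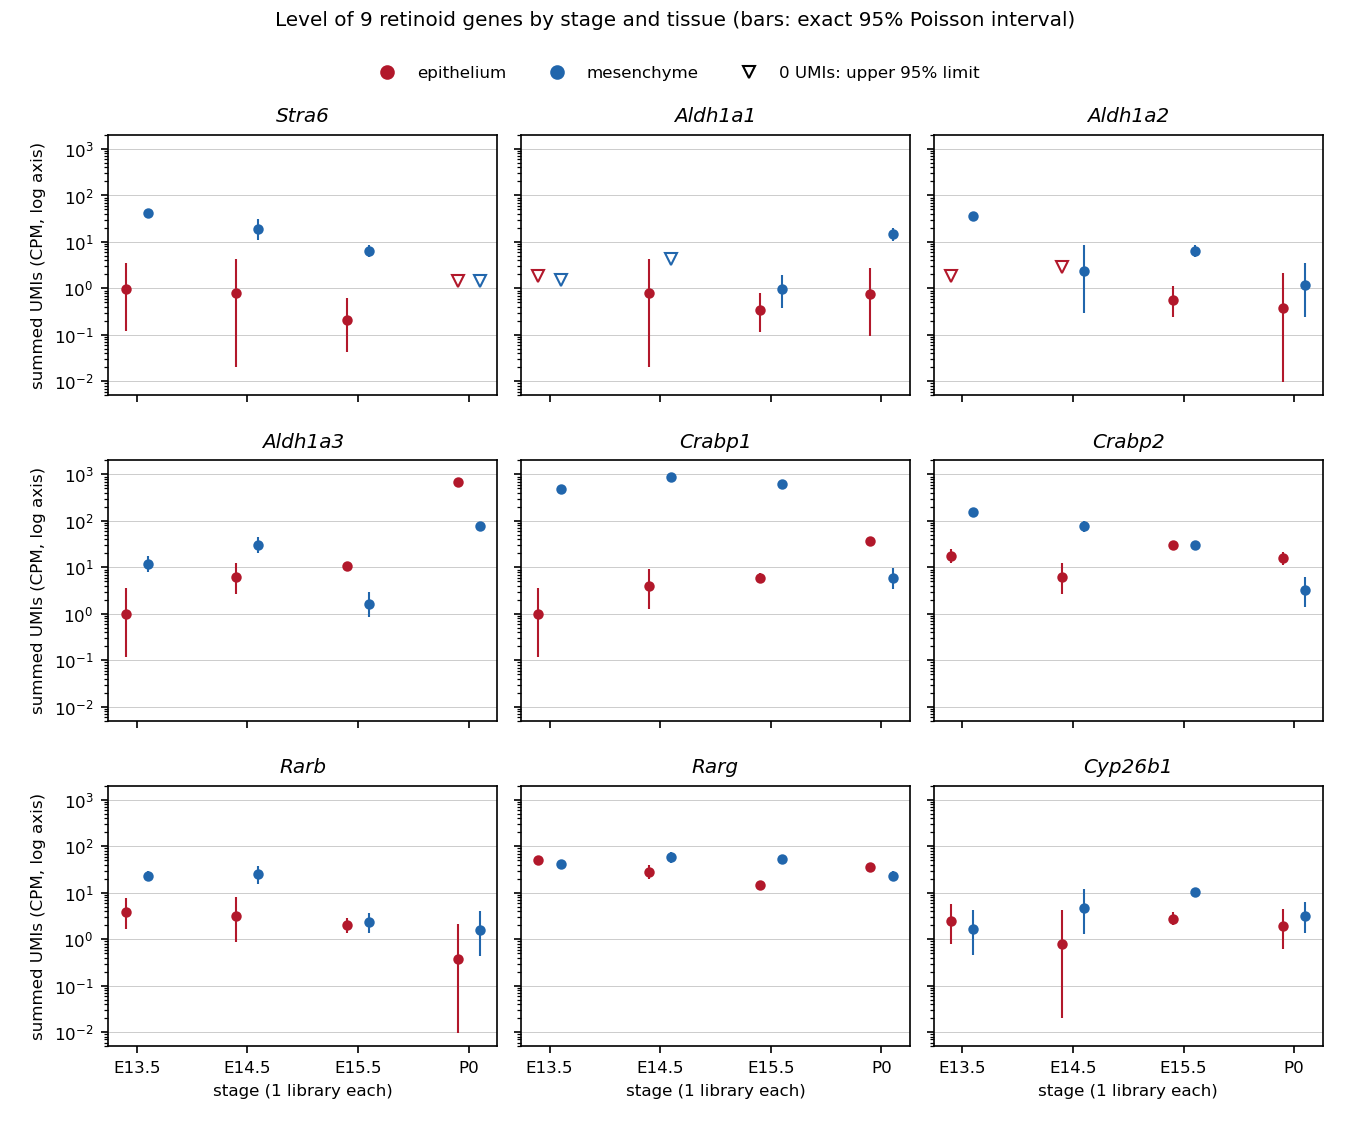
Level of each gene (summed UMIs in CPM, log axis) by stage in epithelium (red) and mesenchyme (blue), with exact 95% Poisson intervals and open triangles at the upper limit for groups with 0 UMIs. Stra6, Aldh1a2 and Rarb had their highest levels in embryonic mesenchyme, Crabp1 stood at 482 to 882 CPM in embryonic mesenchyme, and Aldh1a3 reached 688 CPM in P0 epithelium.

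Before birth, most of the genes with enough UMIs were higher in mesenchyme. At E13.5, 6 of the 9 genes were more than 2-fold lower in epithelium than in mesenchyme and none was 2-fold higher, where 32.2% of all genes tested were past 2-fold in either direction and 21.9% were lower in epithelium. These were Stra6, Aldh1a2, Aldh1a3, Crabp1, Crabp2 and Rarb, while Rarg was within 2-fold and Aldh1a1 and Cyp26b1 had fewer than 20 UMIs in both tissues together. At E14.5, 5 genes were more than 2-fold lower in epithelium (Aldh1a3, Crabp1, Crabp2, Rarb and Rarg), 4 were under 20 UMIs, and the share of all genes past 2-fold was 32.1% (17.5% lower in epithelium). This count was 1 after thinning to 5000 UMIs per cell and also with a minimum of 100 UMIs, under which the counts for E13.5 and P0 were 3 and 2. At E15.5, 5 genes were lower in epithelium (Stra6, Aldh1a2, Crabp1, Rarg and Cyp26b1), Aldh1a3 was higher, Crabp2 and Rarb were within 2-fold, Aldh1a1 was under 20 UMIs, and the share of all genes was 39.3% (16.8% higher and 22.5% lower). At P0 the picture was another: Aldh1a3, Crabp1 and Crabp2 were higher in epithelium, Aldh1a1 was lower, Rarg was within 2-fold, and Stra6, Aldh1a2, Rarb and Cyp26b1 were under 20 UMIs, with 43.6% of all genes past 2-fold (24.7% higher and 18.9% lower). The median log2 fold of all genes tested was -0.18, 0.02, -0.10 and 0.30 at the 4 stages. A gene of low level could pass the minimum of 20 UMIs only through the tissue in which it was high, so these counts describe the genes and are no support for a tissue preference of the group.

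**Figure D2:**
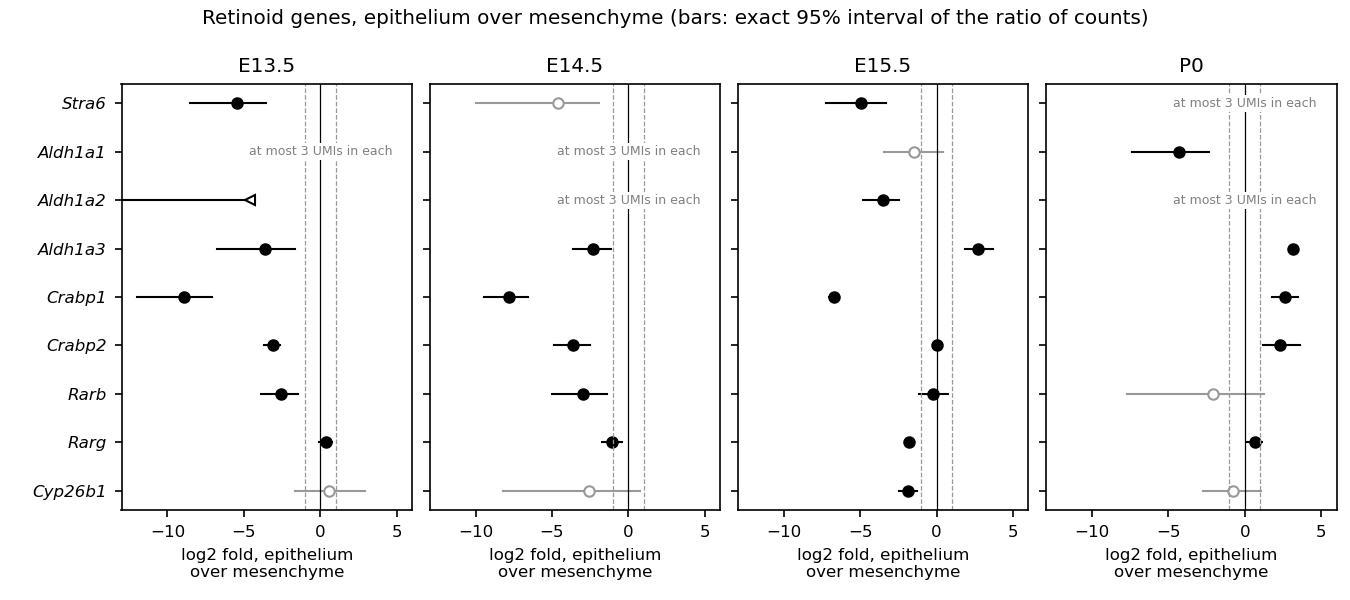
Log2 fold of epithelium over mesenchyme for each gene at each stage with exact 95% intervals; dashed lines mark 2-fold, grey open circles are genes under 20 UMIs, and the open triangle is a bound. Aldh1a3, Crabp1 and Crabp2 lay left of 0 at E13.5 and E14.5 and right of it at P0, and Aldh1a3 was right of 0 already at E15.5.

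UMIs of the uptake gene were found mainly in embryonic mesenchyme, and uptake itself was not measured. Stra6 (chromosome 9, 58063788 to 58153996, plus strand), the membrane receptor that brings in retinol, had 102 UMIs in mesenchyme at E13.5 (42.4 CPM, 34.5 to 51.4), 16 at E14.5 (19.1 CPM, 10.9 to 31.0), 46 at E15.5 (6.34 CPM, 4.64 to 8.45) and 0 in P0 cells. Epithelium had 2, 1, 3 and 0 UMIs in the same order, so the mesenchymal level was 43.2-fold higher at E13.5 (11.7 to 362) and 30.2-fold higher at E15.5 (9.70 to 152). The mesenchymal levels of the 3 embryonic stages followed each other downward with intervals of the folds above 1, and E15.5 was 6.68-fold below E13.5 (4.68 to 9.69). At E14.5, 11 of the 16 UMIs came from 2 cells, and the level without them was 6.54 CPM. With 34.8% of E13.5 mesenchymal cells holding a UMI (26.8 to 43.5), Stra6 followed Crabp2, Crabp1 and Rarg in how widely it was detected there. At P0, 0 of 230 epithelial and 0 of 273 mesenchymal cells had a UMI, which allows shares of cells with a UMI of up to 1.30% and 1.10% (3 cells of each group) at the P0 depths of 9973 and 8743 UMIs, and says nothing of cells that express Stra6 below that depth. Part of Stra6 overlaps Gm16131 on the same strand, and Ccdc33 on the other.

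The 3 retinaldehyde dehydrogenases were found in different places. Aldh1a2 (chromosome 9, 71215789 to 71296243, plus strand), the main source of retinoic acid in the early embryo, had 87 UMIs in E13.5 mesenchyme (36.1 CPM, 28.9 to 44.6), 2 at E14.5, 47 at E15.5 (6.47 CPM, 4.76 to 8.61) and 3 at P0. It had 0, 0, 8 and 1 UMIs in epithelium. The E13.5 mesenchymal level was at least 24.6-fold above that of epithelium, computed against 3 UMIs in the epithelial cells together, and 5.58-fold above that of E15.5 mesenchyme (3.87 to 8.14). It came from few cells: 15 of 135 mesenchymal cells at E13.5 (11.1%, 6.35 to 17.7) and 14 of 283 at E15.5 (4.95%, 2.73 to 8.16). The 2 cells with the most UMIs gave 26 of the 87 UMIs at E13.5 and 19 of the 47 at E15.5.

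Aldh1a3 (chromosome 7, 66390890 to 66427517, minus strand), which makes retinoic acid in several epithelia, was the gene with the widest range in epithelium. Its epithelial UMIs were 2 at E13.5 (0.980 CPM, 0.119 to 3.54), 8 at E14.5 (6.28 CPM, 2.71 to 12.4), 154 at E15.5 (10.8 CPM, 9.14 to 12.6) and 1800 at P0 (688 CPM, 657 to 721). E15.5 was 11-fold above E13.5 (2.99 to 91.6), but after thinning to 5000 UMIs per cell no E13.5 epithelial cell held a UMI and the log2 fold against the minimum of 3 UMIs was 0.30. P0 was 63.9-fold above E15.5 (54.2 to 75.8). The share of epithelial cells with a UMI was 13% at E15.5 (10.2 to 16.1) but reached 69.6% at P0 (63.2 to 75.4). After every cell was thinned to 5000 UMIs these shares were 2.82% and 60.4%, so the shallower P0 cells still held it more often.

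In mesenchyme Aldh1a3 had 29 UMIs at E13.5 (12.0 CPM, 8.06 to 17.3), 26 at E14.5, 12 at E15.5 (1.65 CPM, 0.854 to 2.89) and 197 at P0 (78.6 CPM, 68.0 to 90.3). All 26 UMIs at E14.5 came from 2 of 31 cells, and the other 29 cells had 0, so that call rests on those cells. Epithelium was 12.3-fold below mesenchyme at E13.5 (3.11 to 106, and under 20 UMIs after thinning), 6.52-fold above it at E15.5 (3.63 to 12.9) and 8.76-fold above it at P0 (7.56 to 10.2). At P0 the mesenchymal level was 11.4% of the epithelial one, while Epcam, Krt8, Krt18 and Krt14 stood at 2.51% to 3.19% of theirs. Krt5 had 46 UMIs in P0 epithelium and 0 in P0 mesenchyme. In P0 mesenchyme 86 of the 197 UMIs came from 2 cells (44.7 CPM without them). When only cells whose tissue markers were at least 4-fold apart were kept, 103 UMIs remained in 267 cells (41.9 CPM, 34.2 to 50.8), and the epithelial markers dropped with it from 358 to 177 CPM. The part of these markers' cells in the P0 mesenchymal level was not tested.

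Aldh1a1 (chromosome 19, 20492715 to 20643465, plus strand), known for retinoic acid synthesis in adult tissues and as a stem cell marker, was nearly undetected before birth, with 0 to 7 UMIs in each of the 6 embryonic groups. P0 mesenchyme had 37 UMIs (14.8 CPM, 10.4 to 20.3), 15.3-fold above E15.5 mesenchyme (6.73 to 40.7) and 19.3-fold above P0 epithelium, which had 2 UMIs (4.98 to 165). They were spread over 27 of 273 cells (9.89%, 6.62 to 14.1). C730002L08Rik and Gm6684 lie on the other strand of Aldh1a1, and Gm48124 on that of Aldh1a2.

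The share of each in the UMIs of the 3 genes differed by group. In E13.5 mesenchyme Aldh1a2 made up 75.0% of 116 UMIs (66.1 to 82.6), and in E15.5 mesenchyme 71.2% of 66 (58.8 to 81.7). In E15.5 epithelium Aldh1a3 made up 92.2% of 167 UMIs (87.1 to 95.8), and in P0 epithelium 99.8% of 1803. In P0 mesenchyme it was Aldh1a3 with 83.1% of 237 UMIs (77.7 to 87.7) and Aldh1a1 with 15.6% (11.2 to 20.9). UMIs from 3' ends do not depend on transcript length, but capture can differ between genes, so these shares compare groups more safely than genes.

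In embryonic mesenchyme, the binding proteins took most of the UMIs of the 9 genes. Crabp1 (chromosome 9, 54764748 to 54773110, plus strand), which holds retinoic acid in the cytoplasm, had 1160 UMIs in mesenchyme at E13.5 (482 CPM, 454 to 510), 739 at E14.5 (882 CPM, 819 to 948), 4522 at E15.5 (623 CPM, 605 to 641) and 15 at P0 (5.98 CPM, 3.35 to 9.87). Its level at P0 was 104-fold below that of E15.5 (63.1 to 186), while E15.5 was within 2-fold of E13.5 (1.29-fold higher, 1.21 to 1.38). From E13.5 to P0, 64.4%, 77.4%, 82.3% and 2.56% of mesenchymal cells held a UMI, and after thinning 57.0%, 58.1%, 68.6% and 1.10%. The study named Crabp1 as a marker of sub-epithelial against dermal mesenchyme at E15.5, from these same samples and from RNA in situ hybridisation on sections. Its E15.5 counts here come from those samples and are no independent evidence of that.

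Epithelium had 2, 5, 86 and 95 UMIs of Crabp1 from E13.5 to P0, or 0.980 CPM (0.119 to 3.54), 3.93 (1.28 to 9.16), 6.02 (4.81 to 7.43) and 36.3 (29.4 to 44.4). The mesenchymal level was 492-fold higher at E13.5 (136 to 4065), 225-fold at E14.5 (95.8 to 694) and 104-fold at E15.5 (83.6 to 130), and P0 reversed the order, with epithelium 6.07-fold higher (3.50 to 11.3). At E15.5, 55 of the 86 epithelial UMIs came from 1 cell, and without cells whose markers were under 4-fold apart the level was 2.18 CPM. As a share of the mesenchymal level, epithelial Crabp1 at E15.5 stood at 0.966%, within the 0.399% to 0.973% at which the 3 collagens stood. At P0, 18 of 230 epithelial cells held the 95 UMIs (7.83%, 4.70 to 12.1), 40 of them in 2 cells, against 7 of 273 mesenchymal cells (2.56%, 1.04 to 5.21).

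Crabp2 (chromosome 3, 87948666 to 87953376, plus strand), which hands retinoic acid to its receptors in the nucleus, was shared by both tissues. Mesenchyme had 371 UMIs at E13.5 (154 CPM, 139 to 171), 64 at E14.5 (76.4 CPM, 58.8 to 97.5), 216 at E15.5 (29.8 CPM, 25.9 to 34.0) and 8 at P0 (3.19 CPM, 1.38 to 6.29). Each of these levels was lower than that of the stage before it, with intervals that did not overlap, E15.5 being 5.18-fold below E13.5 (4.37 to 6.15) and P0 9.33-fold below E15.5 (4.65 to 21.9). Epithelium had 36 UMIs (17.6 CPM, 12.3 to 24.4), 8 (6.28 CPM, 2.71 to 12.4), 426 (29.8 CPM, 27.0 to 32.8) and 41 (15.7 CPM, 11.3 to 21.3). The tissues were therefore 8.74-fold apart at E13.5 (6.2 to 12.7), level at E15.5 (epithelium 1.00-fold of mesenchyme, 0.848 to 1.19) and apart the other way at P0, where epithelium was 4.92-fold higher (2.28 to 12.1).

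Within the pair, Crabp1 made up 75.8% of 1531 UMIs in E13.5 mesenchyme (73.5 to 77.9), 92.0% of 803 at E14.5 (89.9 to 93.8) and 95.4% of 4738 at E15.5 (94.8 to 96.0). In epithelium Crabp2 was the larger share at E15.5, with 83.2% of 512 UMIs (79.7 to 86.3), and Crabp1 at P0, with 69.9% of 136 (61.4 to 77.4).

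**Figure D3:**
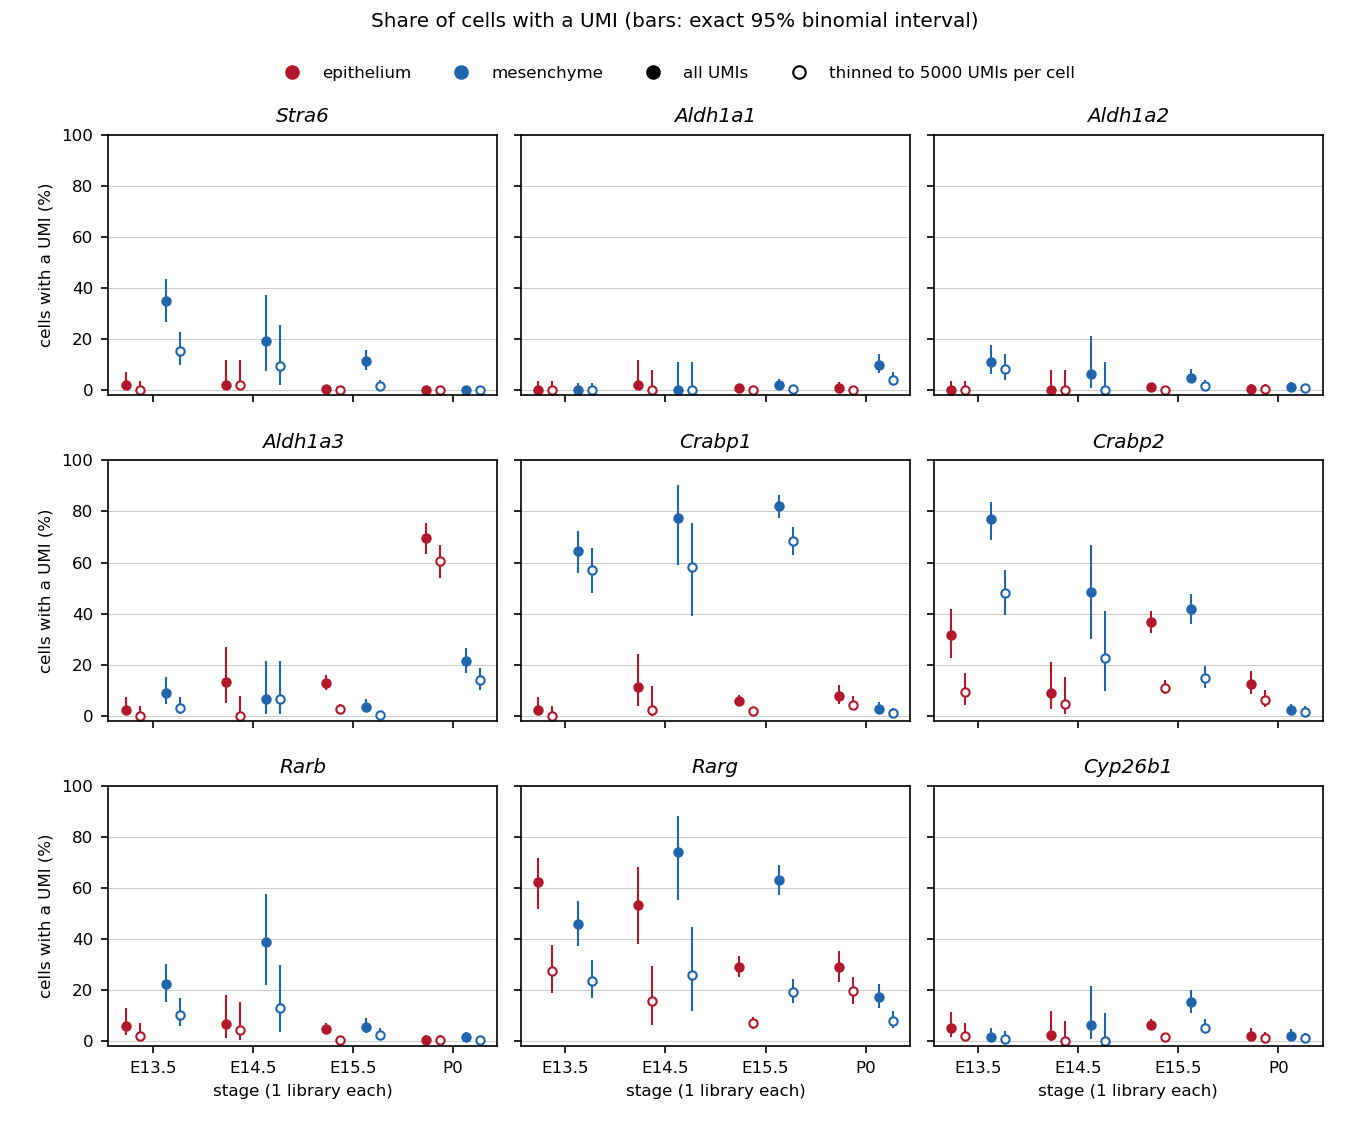
Share of cells with at least 1 UMI of each gene by stage in epithelium (red) and mesenchyme (blue), with all UMIs (filled) and after thinning each cell to 5000 UMIs (open), and exact 95% binomial intervals. Crabp1 was in 64.4% to 82.3% of embryonic mesenchymal cells, Aldh1a3 in 69.6% of P0 epithelial cells, and Rarg in cells of every group.

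Receptors were divided between a widespread and a restricted gene. Rarg (chromosome 15, 102234938 to 102257517, minus strand), the receptor best known from skin and cartilage, had the narrowest range of the 9 genes. Epithelium had 106 UMIs at E13.5 (51.9 CPM, 42.5 to 62.8), 36 at E14.5 (28.3 CPM, 19.8 to 39.1), 209 at E15.5 (14.6 CPM, 12.7 to 16.7) and 95 at P0 (36.3 CPM, 29.4 to 44.4), and mesenchyme 99 (41.1 CPM, 33.4 to 50.04), 49 (58.5 CPM, 43.3 to 77.3), 379 (52.2 CPM, 47.1 to 57.7) and 58 (23.1 CPM, 17.6 to 29.9). The 7 highest of these 8 levels did not differ from their neighbours in the order beyond the interval of the fold, and E15.5 epithelium, the lowest, was 1.58-fold below P0 mesenchyme (1.16 to 2.13). Levels further apart in the order could differ: P0 mesenchyme was 2.26-fold below E15.5 mesenchyme (1.71 to 3.03). Epithelium and mesenchyme were within 2-fold at E13.5 (1.26-fold, 0.951 to 1.68) and at P0 (1.57-fold, 1.12 to 2.22), while mesenchyme was 2.07-fold higher at E14.5 (1.32 to 3.27), just past the limit and within it with a mitochondrial maximum of 10% (log2 -0.66), and 3.57-fold higher at E15.5 (3.01 to 4.25). In epithelium, E15.5 was 3.55-fold below E13.5 (2.78 to 4.51) and P0 was 2.49-fold above E15.5 (1.93 to 3.18). Within E13.5 epithelium, cluster 2, which raised the most mammary markers, had 26.7 CPM of Rarg (12.2 to 50.6). Clusters 0, 1 and 3 had 55.7, 62.3 and 47.7 CPM.

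Rarb (chromosome 14, 16430839 to 16819156, minus strand) had 56 UMIs in mesenchyme at E13.5 (23.3 CPM, 17.6 to 30.2), 21 at E14.5 (25.1 CPM, 15.51 to 38.3), 17 at E15.5 (2.34 CPM, 1.36 to 3.75) and 4 at P0, and 8, 4, 29 and 1 UMIs in epithelium. Gm48162 and Top2b overlap it on the other strand. Mesenchyme was 5.93-fold above epithelium at E13.5 (2.81 to 14.4) and 7.98-fold at E14.5 (2.69 to 32.0), and at E15.5 the tissues did not differ beyond counting error (epithelium 0.866-fold of mesenchyme, 0.460 to 1.68). In mesenchyme E15.5 was 9.93-fold below E13.5 (5.69 to 18.2), and the share of cells with a UMI was 22.2% at E13.5 (15.52 to 30.2) and 5.65% at E15.5 (3.27 to 9.02). In epithelium P0 was counted as lower than E15.5, from 1 UMI against 29, and the interval of that fold held 1 (0.879 to 217 times lower).

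Of the breakdown genes, Cyp26b1 had its highest level in E15.5 mesenchyme. Cyp26b1 (chromosome 6, 84571414 to 84593908, minus strand), which clears retinoic acid in skin, limb and gonad of the embryo, had 75 UMIs in E15.5 mesenchyme (10.3 CPM, 8.13 to 12.95) in 43 of 283 cells (15.2%, 11.2 to 19.9), and 40 UMIs in E15.5 epithelium (2.80 CPM, 2.00 to 3.81) in 33 of 532 cells (6.2%, 4.31 to 8.60). The mesenchymal level was 3.69-fold higher (2.48 to 5.56). The other 6 groups had 1 to 8 UMIs, at 0.785 to 4.77 CPM, a range that held the level of E15.5 epithelium. Between E15.5 and E13.5 epithelium the gene did not differ beyond counting error (1.14-fold, 0.451 to 3.71). E15.5 mesenchyme was 6.22-fold above E13.5 mesenchyme (2.33 to 23.4) and 3.24-fold above P0 mesenchyme (1.56 to 7.77), but it did not stand apart from E14.5 mesenchyme, which had 4 UMIs (2.16-fold, 0.811 to 8.15). Of the other Cyp26 genes, Cyp26a1 had 2 UMIs in E13.5 epithelium, and Cyp26c1 was at 0.

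Read along time, more of the 9 genes were lower than higher in mesenchyme in both intervals. From E13.5 to E15.5, 5 were more than 2-fold lower (Stra6, Aldh1a2, Aldh1a3, Crabp2 and Rarb), Cyp26b1 was higher, Crabp1 and Rarg were within 2-fold and Aldh1a1 was under 20 UMIs, where 22% of all genes tested were past 2-fold (8.16% higher and 13.8% lower). From E15.5 to P0, 6 were lower (Stra6, Aldh1a2, Crabp1, Crabp2, Rarg and Cyp26b1), Aldh1a1 and Aldh1a3 were higher and Rarb was within 2-fold, beside 42.5% of all genes past 2-fold (14.3% higher and 28.2% lower). With a minimum of 100 UMIs the counts for mesenchyme were 3 and 4, and after thinning the later one was 5 and the one for epithelium from E13.5 to E15.5 was 1. Stra6 was at least 5.30-fold lower at P0, computed against 3 UMIs in the P0 cells together. In epithelium, Aldh1a3 and Crabp1 were higher and Rarg lower at E15.5 than at E13.5, with 3 genes within 2-fold, 3 under 20 UMIs and 29.7% of all genes past 2-fold (14.9% higher and 14.8% lower). The size of the Crabp1 fold rests in part on 1 cell of E15.5. With tissue markers at least 4-fold apart the levels were 2.18 CPM from 31 UMIs (1.48 to 3.09) and 0.980 CPM from 2 UMIs (0.119 to 3.54). That is still past 2-fold, but the intervals of the 2 levels overlap. After thinning, E13.5 epithelium had 0 UMIs of Crabp1, so the Crabp1 fold was a bound set against 3 UMIs. It was also under the UMI minimum. From E15.5 to P0, Aldh1a3, Crabp1 and Rarg were higher and Rarb lower in epithelium, Crabp2 and Cyp26b1 were within 2-fold and 3 genes were under 20 UMIs, with 33.5% of all genes past 2-fold (15% higher and 18.5% lower). The median log2 fold of all genes was -0.18 in mesenchyme and -0.05 in epithelium for the earlier interval, and -0.42 and -0.11 for the later one, in which the collagens alone took 74311 CPM of P0 mesenchyme. Red blood cell markers also moved with P0 mesenchyme: they summed to 4445 CPM there and to at most 7.65 CPM in each of the other groups, and 5 P0 mesenchymal cells had 5 or more of their UMIs. Markers of immune cells summed to 112 CPM in P0 mesenchyme and to at most 3.44 CPM elsewhere, and 3 cells had 5 or more. Proliferation markers went the other way, from 1005 CPM in E15.5 mesenchyme to 42.7 CPM at P0. Their part in the P0 levels was not tested.

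Other genes of the pathway were followed through lists that count, besides the 9 genes, 12 genes of uptake and storage, 18 of the oxidation and reduction of retinol and retinal, 1 further binding protein, 11 receptors and cofactors, 2 further Cyp26 genes and 13 genes known to respond to retinoic acid, some of them in 2 lists. Of the 12 uptake and storage genes, 4, 3, 6 and 5 were tested in stage order. Among those, 2, 2, 3 and 3 were more than 2-fold lower in epithelium than in mesenchyme, where 21.9%, 17.5%, 22.5% and 18.9% of all genes were, and 0, 0, 1 and 2 were higher, where 10.3%, 14.7%, 16.8% and 24.7% of all genes were. At P0 mesenchyme held Rbp4, the plasma carrier of retinol, at 205 CPM (187 to 223), 55.0-fold above E15.5 mesenchyme (37.4 to 84.3). Lpl, a lipase that frees fatty acids, also from retinyl esters, stood there at 1048 CPM (1008 to 1088), 317-fold above E15.5 mesenchyme (213 to 495). From E15.5 to P0, 2 of the 5 genes tested in mesenchyme were higher and 0 lower, where 14.3% and 28.2% of all genes were. In epithelium 4 of 5 were higher and 0 lower, where 15% and 18.5% of all genes were.

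Of the 18 genes that oxidise or reduce retinol and retinal, 8, 6, 14 and 9 were tested in stage order. Among those, 1, 1, 6 and 1 were more than 2-fold lower in epithelium, where 21.9%, 17.5%, 22.5% and 18.9% of all genes were. In the other direction, 2, 0, 2 and 1 were higher, where 10.3%, 14.7%, 16.8% and 24.7% of all genes were. Rdh10, the main retinol dehydrogenase of the embryo, was higher in mesenchyme before birth and in epithelium at P0. Its levels in stage order were 3.43, 7.85, 10.98 and 84.9 CPM in epithelium and 27.0, 22.7, 22.6 and 17.1 CPM in mesenchyme, so epithelium was 0.127-fold of mesenchyme at E13.5 (0.0491 to 0.277) and 4.95-fold at P0 (3.56 to 7.03). The alcohol dehydrogenase Adh7 had 581 UMIs in E15.5 mesenchyme (80.03 CPM, 73.7 to 86.8) and 0 at E13.5. It was at least 64.2-fold higher at E15.5, and P0 mesenchyme was back at 5.18 CPM. Adh1 stood at 75.6 CPM in E15.5 and 82.5 CPM in P0 mesenchyme and at most 25.1 CPM in any epithelium.

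Fabp5, the further binding protein, which can carry retinoic acid to another nuclear receptor, was 2.97-fold higher in epithelium at E14.5 (2.57 to 3.43) and 4.79-fold at E15.5 (4.48 to 5.13), and 0.980-fold of mesenchyme at P0 (0.839 to 1.14). Of the receptors and cofactors, 9 of 10 tested, 9 of 10, 8 of 11 and 9 of 10 in stage order were within 2-fold between tissues, where 32.2%, 32.1%, 39.3% and 43.6% of all genes were past it. Rara, the third receptor, had 63.7 and 69.9 CPM in epithelium and 42.4 and 37.0 CPM in mesenchyme at E13.5 and E14.5, and 19.9 and 18.3 CPM at P0. Ncor1, a corepressor that the receptors bind without their ligand, stayed between 149 and 218 CPM in all 8 groups.

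Of the 13 genes known to respond to retinoic acid, those lower in epithelium were 5 of 8 tested, 4 of 5, 6 of 7 and 5 of 7 in stage order. Of all genes tested, 21.9%, 17.5%, 22.5% and 18.9% were lower. Higher in epithelium were 2, 0, 0 and 1 of the list, and 10.3%, 14.7%, 16.8% and 24.7% of all genes tested. These counts depend on the UMI minimum as well, and are no support for a tissue preference of the list. The genes given next are examples with higher levels in mesenchyme. They do not stand for the list, which also held the genes counted as higher in epithelium. Meis2, a homeobox gene, had 486, 548, 433 and 49.0 CPM in mesenchyme and 279, 227, 69.5 and 12.6 CPM in epithelium. Nr2f2, an orphan receptor, had 131 CPM in E15.5 mesenchyme and 13.2 CPM in E15.5 epithelium. Rarres2, the precursor of the adipokine chemerin, had 21.9 to 32.2 CPM in embryonic mesenchyme and 703 CPM at P0 (671 to 737), and at most 1.15 CPM in any epithelium. Such genes answer to many signals, and the list says nothing of retinoic acid itself, which was not measured.

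The same genes were then followed through clusters of cells within each tissue and stage, made without any gene of the retinoid lists among the variable genes. Clusters are given by number and leading genes, and a name ending in -like comes from marker lists by a rule set once the clusters had been seen. In E13.5 mesenchyme Aldh1a2 and Crabp1 were highest in different clusters. Aldh1a2 had 48 UMIs in cluster 0, led by Mecom, Sox9 and Ebf2 and with the hindlimb gene Tbx4 among its 10 leading genes (65.4 CPM), and 33 in the proliferative cluster 3 (52.5 CPM), but 0 in cluster 1, led by Enpp2, C1ql3 and Casz1. Crabp1 was highest in that cluster 1 (1045 CPM), 10.04-fold above cluster 2 (7.64 to 13.4), which was led by Abi3bp and Kcnj8 and had 104 CPM. Clusters 3 and 0, which held Aldh1a2, had 717 and 192 CPM of Crabp1. Crabp2 went the other way, with 203 CPM in cluster 0 and 88.1 CPM in cluster 1 (2.30-fold, 1.63 to 3.31). Rarb was highest in cluster 0 too, with 38.1 CPM there and 6.15 CPM in cluster 1 (6.2-fold, 1.92 to 31.9). Between clusters 0 and 3 (23.9 CPM) Rarb did not differ beyond counting error (1.60-fold, 0.825 to 3.22), and 21.7% and 33.3% of their cells held a UMI. Stra6 was 2.03-fold higher in cluster 1 than in cluster 0 (1.10 to 3.82). Calling a cluster the highest and another the lowest chooses among 4, so these folds are descriptions.

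In E15.5 mesenchyme, cluster 0, dermal-like and led by Nrk, Itm2a and Aspn, was the lowest of the 4 for Crabp1, Aldh1a2, Stra6, Rarg and Cyp26b1. Crabp1 had 131 CPM there and 816, 788 and 696 CPM in cluster 1, sub-epithelial-like and led by Polr2l and Pla2g7, the proliferative cluster 2 and cluster 3, led by Gal and Tac1, and it was found in 42.0% of the cells of cluster 0 and in 95.8% to 100% of the others. Cluster 1 was 6.21-fold above cluster 0 for Crabp1 (5.40 to 7.17), 2.39-fold for Rarg (1.71 to 3.39), 2.68-fold for Cyp26b1 (1.26 to 6.18), 8.61-fold for Stra6 (2.06 to 76.5) and 16.3-fold for Aldh1a2 (2.55 to 679). Rarb was an exception, with 12 of its 17 UMIs in cluster 3, and so was Crabp2, with 22.0 CPM in cluster 0 and 21.9 CPM in cluster 3. Cluster 0 also held the most epithelial marker UMIs of the 4 (471 CPM, against 46.5 to 203), and their part in its levels was not tested.

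In E15.5 epithelium, Crabp2 was highest in cluster 1, luminal-like and led by Ly6d, Id1 and Krtdap (63.1 CPM), 2.29-fold above the proliferative cluster 3 (1.74 to 3.03) and 9.58-fold above cluster 4, led by Dcn and Has2 (4.32 to 26.4). Cluster 1 had 20.9% of the epithelial cells and 46.0% of the Crabp2 UMIs. Aldh1a3 was low in all 6 clusters, from 0 to 18.5 CPM, with 18.5 in the proliferative cluster 3 and 14 in cluster 0, led by Olfr920 and Brinp2, which did not differ beyond counting error (1.32-fold, 0.898 to 1.93).

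In P0 epithelium, Aldh1a3 and Crabp1 were highest in different clusters. Aldh1a3 had 1744 CPM in cluster 1, led by Akap12, Aldh1a3 itself and Cldn1, 830 CPM in cluster 2, led by Kctd12 and Col9a1, and 508 CPM in cluster 0, luminal progenitor-like but led by the stress genes Fosb and Fos, while the mature luminal-like cluster 3 had 77.6 CPM and the basal-like cluster 4 had 9.56 CPM. Cluster 1 held 54.9% of the Aldh1a3 UMIs in 25.2% of the epithelial cells and also the most collagen UMIs (536 CPM, against 162 to 281 CPM in the other clusters). The study listed Aldh1a3 among the genes of its P0 luminal progenitors, from these same samples. The P0 counts of Aldh1a3 here are therefore no independent evidence of that. Crabp1 had 73 of its 95 UMIs in cluster 3 (162 CPM) and 22 in the proliferative cluster 5 (76.7 CPM), and 0 in the other 4 clusters. For Crabp1, cluster 3 was at least 11.3-fold above the basal-like cluster 4, computed against 3 UMIs in the 19 cells of that cluster. Cluster 5 also had 157 CPM of Aldh1a3, in 10 of its 12 cells. Of the 18 epithelial cells with a Crabp1 UMI, 10 also held Aldh1a3 (55.6%), against 150 of the 212 others (70.8%). Rdh10 was highest where Crabp1 was found, with 195 CPM in cluster 3 (157 to 240) and 188 CPM in cluster 5 (142 to 246), but it was also present in clusters 0, 1, 2 and 4, at 73.3, 44.1, 15.2 and 23.9 CPM. In P0 mesenchyme, Aldh1a3 was highest in cluster 1, led by Wfdc18 and Pakap (180 CPM, with 101 of 197 UMIs), which also had the most epithelial marker UMIs (859 CPM, against 126 to 541 CPM). Cluster 4, led by Hpgd and Klf2, had 126 CPM of epithelial markers and 71.5 CPM of Aldh1a3, in 46.2% of its cells.

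**Figure D4:**
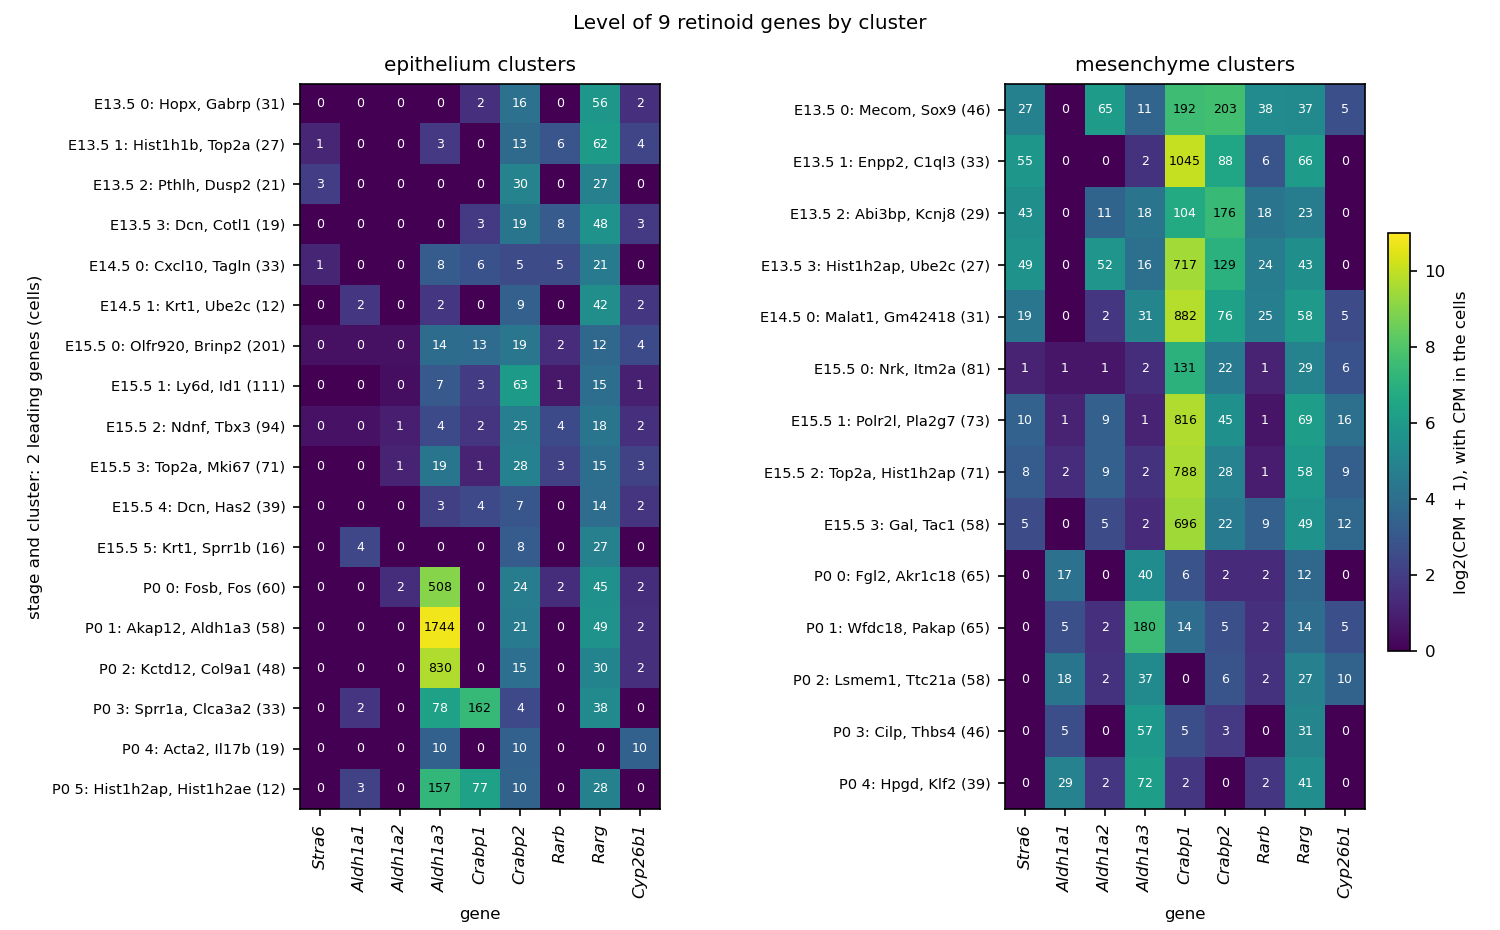
Level of each gene (CPM, printed in each field and coloured as log2(CPM + 1)) in each cluster of epithelium (left) and mesenchyme (right), with 2 leading genes and the number of cells. Aldh1a3 was highest in P0 epithelial clusters 1, 2 and 0, Crabp1 in embryonic mesenchymal clusters and in P0 epithelial cluster 3, and Aldh1a2 in E13.5 mesenchymal clusters 0 and 3.

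The genes most like a member were sought over the 27 clusters of at least 20 cells among 6538 genes with at least 50 CPM in a cluster, by the Pearson correlation of log2(CPM + 10). The clusters share libraries and depth, so these values are descriptions. Aldh1a3 was most like Wfdc18 (0.95), Csn3 (0.93) and Lcn2 (0.92), which encode secreted proteins of the mammary epithelium. Crabp1 was most like Fam174b, Ednra and Col23a1 (0.93 each), and Stra6 most like Tmem59l (0.93), Skp2 (0.89) and Gprasp2 (0.88). Crabp2 had weaker likeness, with Zfp422 at 0.84 and Stra6, itself one of the 9 genes, at 0.83. Rarg had the weakest of the 6 genes compared, with Irx2 at 0.79. Aldh1a1, Rarb and Cyp26b1 did not reach 50 CPM in any cluster and were not compared.

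Counted per cell, an embryonic mesenchymal cell held UMIs of 2.66, 2.77 and 2.30 of the 9 genes on average from E13.5 to E15.5, and a P0 mesenchymal cell of 0.579. Epithelial cells held 1.11, 1.00, 0.979 and 1.23 in stage order. After thinning to 5000 UMIs per cell the mesenchymal means were 1.67, 1.35, 1.15 and 0.308 and the epithelial ones 0.408, 0.289, 0.248 and 0.926. P0 was the stage at which an epithelial cell held more of the 9 genes than a mesenchymal cell, at both depths.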

How the data were processed

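Single cells of 4 libraries were sequenced by the study with the 10x Chromium 3' kit (v3.1). The authors deposited UMI counts per gene and barcode, made with Cell Ranger against mm10; the labels name version 6.0.0, and the header of the E15.5 matrix 3.1.0. The counts were not normalised. The 9 genes and the gene lists were chosen with earlier results of these data known. Cells were filtered, assigned to a tissue, and their counts summed. Past 2-fold means a fold of at least 2, or of 0.5 or less, with at least 20 UMIs in both groups together; a group with 0 UMIs was set to 3. With 1 library per stage no p-value was computed. The smallest groups of stage and tissue rest on 31 and 45 cells, and the smallest clusters on 12. All 9 genes are named, and of the wider lists those with at least 50 CPM in a group were eligible; Cyp26a1 and Cyp26c1 were named after their values were seen. Cells were clustered within each stage and tissue (scanpy 1.11.5, igraph 0.11.9; genes in at least 3 cells, 2000 variable genes without the retinoid lists, 15 components, 15 neighbours, Leiden resolution 0.8). A cluster was named when at least 3 markers of a class were detected in at least 0.25 of its cells, 2 of them raised by 0.5 or more on the log2 scale, with a mean of at least 0.25. No doublet caller was run; the sort gated doublets out, and cells with tissue markers under 4-fold apart were left out in an alternative. Levels without the 2 cells of most UMIs were added after the values were seen. Intervals are at 95%. Python 3.11.15, numpy 2.4.6, pandas 2.3.3, scipy 1.17.1 and matplotlib 3.10.9 were used, and the scripts were tested on simulated counts. Gene positions are from GENCODE on GRCm38. Whether the counting used strand is not given in the sources used here. The value of 1 gene of the wider lists and the genes most like Aldh1a2 are not reported here.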

Additional observations from a re-analysis of the deposited data

Results flagged for a closer look

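For 3 genes the fold between tissues was past 2-fold in both directions over the stages. The fold of epithelium over mesenchyme for Aldh1a3 was 0.0814 at E13.5 and 0.203 at E14.5, then 6.52 at E15.5 and finally 8.76 at P0. For Crabp1 it was 0.00203, 0.00445 and 0.00966 at the embryonic stages and 6.07 at P0. For Crabp2 it was 0.114 and 0.0823 at the earliest stages and 4.92 at P0. The difference between stages was not tested, since each stage has 1 library. The E14.5 value of Aldh1a3 rests on 2 mesenchymal cells, and after thinning both of its earlier values were under the UMI minimum. Rarg was also on both sides of 1, at 0.484 and 0.280 in E14.5 and E15.5 cells and 1.57 in P0 cells, the last within 2-fold.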

How the results depend on the processing

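Each stage has 1 library, so stage and library cannot be told apart, and no replicate could be left out. No paired analysis was possible because no stage has a second library. Of the 70 log2 folds of the 9 genes, all 70 moved by less than their counting interval with a UMI minimum of 3000 per cell or a mitochondrial maximum of 10%, 66 with tissue markers at least 4-fold apart, and 67 with the mean CPM of single cells. After thinning to 5000 UMIs, 37 of 63 did so, and 26 of 42 calls past 2-fold were kept, 15 falling under the UMI minimum because thinning leaves fewer UMIs. Of the counts of the 9 genes past 2-fold, epithelium against mesenchyme at E14.5 went from 5 to 1, E15.5 against E13.5 in epithelium from 3 to 1, and P0 against E15.5 in mesenchyme from 8 to 5. With a minimum of 100 UMIs in place of 20, the count went from 6 to 3 at E13.5, from 5 to 1 at E14.5 and from 4 to 2 at P0 between tissues, and in mesenchyme from 6 to 3 for E15.5 against E13.5 and from 8 to 4 for P0 against E15.5. Thinning changed the sign of 3 log2 folds, all under the UMI minimum there. Aldh1a3 between tissues was 0.0471 at E13.5 and 0.0473 at E14.5, and Crabp1 for E15.5 against E13.5 in epithelium was -0.22. In each, the lower group had 0 UMIs after thinning and was set to 3, so these values are bounds. The UMIs left all lay in the group that was higher before thinning. With tissue markers at least 4-fold apart, the log2 fold of Aldh1a3 between tissues at P0 was 4.04, against 3.13.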
